A study of Mus musculus with 9 samples.

Results

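The genes described here serve osteoblast commitment and the handling of mineral in MC3T3-E1 cells. They are the transcription factors *Sp7* and *Dlx5*, the receptor *Pth1r*, the matrix gene *Sparc*, and the phosphate, pyrophosphate and matrix vesicle genes *Alpl*, *Enpp1*, *Ank*, *Phospho1* and *Smpd3*. All probe sets whose annotated symbol is one of these 9 genes were taken, which gave 11 probe sets of 7 genes among the 45101 probe sets of the array. *Sparc* and *Smpd3* had 3 probe sets each, and *Sp7*, *Dlx5*, *Pth1r*, *Alpl* and *Ank* had 1 each. *Enpp1* had no probe set in the annotation used, and the 1 probe set that carries the symbol *Phospho1* also carries that of another gene, so neither is analysed here.

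The preosteoblast line MC3T3-E1 was derived from the calvaria of a newborn C57BL/6 mouse and is long established. All cells were grown for 14 days with 0.3 mM ascorbic acid and 10 mM β-glycerophosphate in medium with 10% serum, and were then replated and cultured for 24 h. Low-intensity pulsed ultrasound (LIPUS; 1.5 MHz, 30 mW/cm2) was given as a single exposure of 20 min through the bottom of the dish. RNA came from cells at 24 h after LIPUS, from cells at 6 h after LIPUS and from mock-treated control cells, with 3 arrays in each group. How long the mock-treated cells were cultured is not stated in the sources used here, so in a comparison with control the effects of LIPUS and of time in culture cannot be told apart, nor can the time since LIPUS and the time in culture between 24 h and 6 h. The labels word the cell type of the 6 h samples as fibroblast-like and that of the other samples as preosteoblasts.

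An osteoblast precursor is committed by a cascade of transcription factors in which *Sp7* (osterix) acts downstream of *Runx2*, and *Dlx5*, a homeobox factor, promotes both. Mineral then forms where phosphate is set free and pyrophosphate, an inhibitor of crystal growth, is kept low. *Alpl* (tissue-nonspecific alkaline phosphatase) cleaves pyrophosphate, *Enpp1* makes it outside the cell and *Ank* raises its level there, while *Smpd3* (neutral sphingomyelinase) makes phosphocholine, from which *Phospho1* frees phosphate inside matrix vesicles.

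The deposited values were log2 signals, 1 for each probe set and array, and levels below are log2 signals unless a difference is named. Their array medians lay between 4.89 and 5.15. Arrays with the same replicate number were treated as 1 experiment and compared with each other. Many values were exactly equal between arrays of 1 experiment. In experiment 1 only 1.26% of the 45037 probe sets other than array controls had the same value at 24 h and in control, whereas 48.4% did in experiment 2 and 31.9% in experiment 3. On all 3 arrays of an experiment, 0.224%, 36.3% and 28.1% of probe sets were equal in experiments 1, 2 and 3. Of the 11 probe sets described here, 0, 3 and 2 were equal on all 3 arrays, and 0, 6 and 8 were equal on at least 1 pair of arrays. How these equal values arose was not tested.

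**Figure D1:**
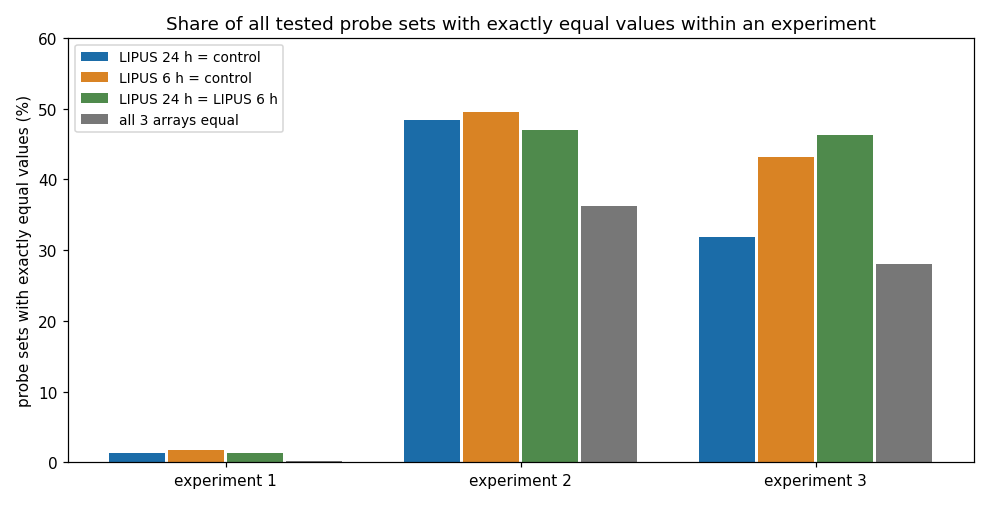
Share of the 45037 tested probe sets (vertical axis, %) whose log2 values were exactly equal between the named arrays of each experiment (horizontal axis). Equal values were rare in experiment 1 and held for 31.9% to 49.5% of probe sets between any pair of arrays in experiments 2 and 3.

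The labelled cell type was compared with its markers. Of 9 osteoblast markers 6 could be measured, and 4 of these are among the genes described here. The mean level of the 6 lay at 7.15 to 7.53 on the 24 h arrays, 7.01 to 7.43 on the 6 h arrays and 7.06 to 7.43 on the control arrays. By group mean, 1 of the 6 lay below the average array median at 24 h, 2 at 6 h and 2 in control. *Col1a1*, which encodes a chain of type I collagen, was the highest of the 6. It reached 12.51 to 12.93 at 24 h, 12.46 to 12.95 at 6 h and 12.43 to 12.84 in control. *Ibsp* (bone sialoprotein), a later marker, was at 3.31 to 4.10 at 24 h, 2.73 to 3.69 at 6 h and 2.99 to 3.53 in control, below the median of its array in each case. *Runx2*, *Bglap* and *Spp1* are not analysed here.

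Each probe set was tested for LIPUS 24 h against control, LIPUS 6 h against control and LIPUS 24 h against LIPUS 6 h with limma, with the experiment as a block. The Benjamini-Hochberg adjustment covered all 45037 probe sets, and a probe set passed where its adjusted p was under 0.05. None of the 11 probe sets passed in any comparison. For *Sp7* and *Smpd3* 1450748_at this was fixed by exact ties in experiments 2 and 3, since experiment 1 alone then sets both the estimate and its spread. Of all probe sets 1229 passed at 24 h against control (809 higher, 420 lower), which is 2.73%. None passed at 6 h against control (0%), and the smallest adjusted p was 0.959, while 1575 probe sets had an unadjusted p under 0.05. The comparison of 24 h with 6 h gave 909 (513 higher, 396 lower), which is 2.02%. Without the block the counts at 24 h were 1 against control and 0 against 6 h. At an unadjusted p under 0.05, with the block, there were 5678, 1575 and 4695 of the 45037 probe sets in these 3 comparisons, and 2, 0 and 2 of the 11 described here. Their median log2 difference was -0.01, -0.01 and -0.03, against 0.001, 0 and 0.005 over all probe sets. The comparisons share arrays, so that they are not independent of each other. Counts of 0 or 2 among 11 are near these backgrounds and are no result about the genes. The 95% intervals given with the estimates treat exact ties as measured differences of 0.

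The study describes its repeats as 3 experiments, but neither it nor the labels say whether each began from a separate culture. With the block, the p-values measure the spread of these arrays that is left once the differences between experiments are taken out. Exact ties entered this spread as measured values. In RNA from whole dishes, fewer cells of a type and less RNA per cell cannot be told apart.

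**Figure D2:**
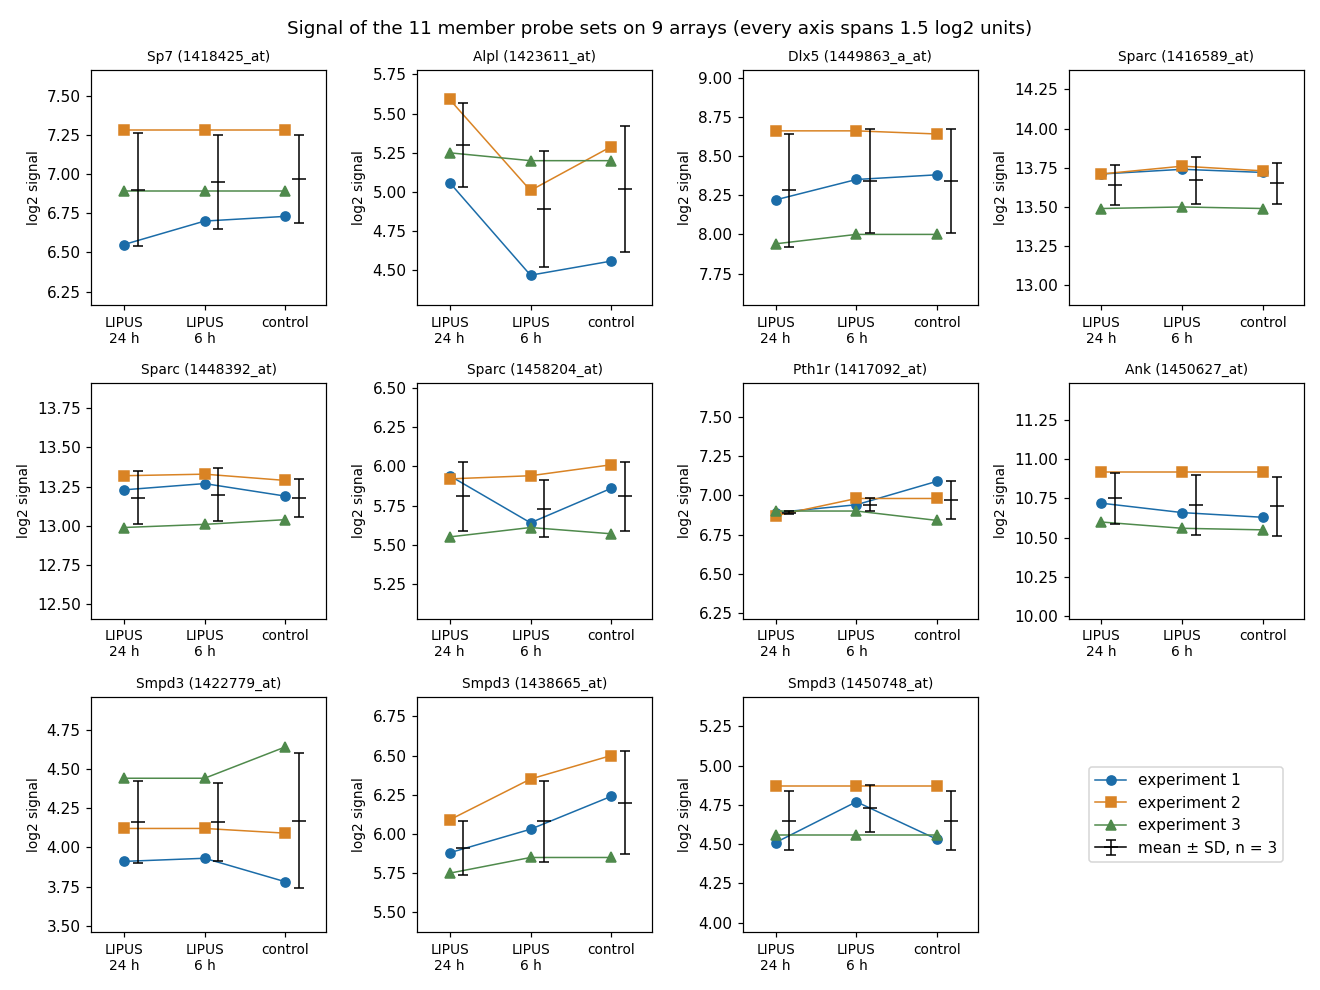
Log2 signal (vertical axes, each spanning 1.5 units) of the 11 probe sets on the LIPUS 24 h, LIPUS 6 h and control arrays, with a line for each experiment and black bars for the group mean ± SD (n = 3). The groups overlap in every panel, the experiments differ more than the groups in most, and *Sp7* runs flat in experiments 2 and 3.

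*Sp7* encodes osterix, a zinc finger factor that osteoblast formation requires. Its signal was 6.55, 7.28 and 6.89 at 24 h, 6.70, 7.28 and 6.89 at 6 h, and 6.73, 7.28 and 6.89 in control, in experiments 1, 2 and 3. The 3 arrays of experiment 2 were exactly equal and so were those of experiment 3, so only experiment 1 bears on a difference. The groups averaged 6.90 ± 0.36 at 24 h, 6.95 ± 0.30 at 6 h and 6.97 ± 0.28 in control (SD, n = 3). The log2 difference at 24 h against control was -0.06 (95% interval -0.18 to 0.06, limma adjusted p = 0.664), at 6 h against control -0.01 (-0.13 to 0.10, adjusted p = 0.984) and at 24 h against 6 h -0.05 (-0.17 to 0.07, adjusted p = 0.787). Each of these estimates averages 1 measured difference with 2 differences of exactly 0, so that *Sp7* could not pass in this fit.

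*Dlx5* showed 8.22, 8.66 and 7.94 at 24 h, 8.35, 8.66 and 8.0 at 6 h, and 8.38, 8.64 and 8.0 in control. The level was lowest in experiment 3 and highest in experiment 2 in every group, and the groups overlapped throughout. Between 24 h and control it differed by -0.15, 0.02 and -0.06 in the 3 experiments. The estimate was -0.06 (-0.16 to 0.03, limma adjusted p = 0.582), that of 6 h against control was 0 (-0.09 to 0.09, adjusted p = 1), and that of 24 h against 6 h was -0.06 (-0.15 to 0.03, adjusted p = 0.690).

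*Pth1r* encodes the receptor through which parathyroid hormone and its related peptide act on osteoblasts. It was at 6.89, 6.87 and 6.90 at 24 h, 6.94, 6.98 and 6.90 at 6 h, and 7.09, 6.98 and 6.84 in control. The 24 h arrays lay close together (6.89 ± 0.01, SD, n = 3), within the range of the control arrays (6.97 ± 0.12, SD, n = 3). The 24 h array was below control in experiments 1 and 2 (differences of -0.20 and -0.11) and above it in experiment 3 (0.06). The estimate was -0.08 (-0.22 to 0.05, limma adjusted p = 0.616) at 24 h against control. It was -0.03 (-0.16 to 0.10, adjusted p = 0.965) at 6 h against control and -0.05 (-0.19 to 0.08, adjusted p = 0.792) at 24 h against 6 h.

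*Sparc* encodes osteonectin, a collagen-binding glycoprotein that is abundant in bone matrix. Its probe set 1416589_at read 13.71, 13.71 and 13.49 at 24 h, 13.74, 13.76 and 13.50 at 6 h, and 13.72, 13.73 and 13.49 in control. The probe set 1448392_at gave 13.23, 13.32 and 12.99 at 24 h, 13.27, 13.33 and 13.01 at 6 h, and 13.19, 13.29 and 13.04 in control. Both were nearly level across the groups, and their intervals were the narrowest of the 11 probe sets. For 24 h against control these were -0.04 to 0.03 for 1416589_at (estimate -0.01, limma adjusted p = 0.857) and -0.05 to 0.06 for 1448392_at (estimate 0.01, adjusted p = 0.920). At 6 h against control they were -0.02 to 0.06 and -0.03 to 0.08 (adjusted p = 0.959 for each). For 24 h against 6 h they were -0.06 to 0.01 (estimate -0.03, adjusted p = 0.630) and -0.07 to 0.04 (estimate -0.02, adjusted p = 0.827).

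The third *Sparc* probe set, 1458204_at, gave 5.94, 5.92 and 5.55 at 24 h, 5.64, 5.94 and 5.61 at 6 h, and 5.86, 6.01 and 5.57 in control. Its values crossed between groups, with differences of 0.08, -0.09 and -0.02 at 24 h against control. The estimates were -0.01 (-0.19 to 0.17, limma adjusted p = 0.975) at 24 h against control, -0.09 (-0.27 to 0.09, adjusted p = 0.959) at 6 h against control and 0.08 (-0.10 to 0.26, adjusted p = 0.780) at 24 h against 6 h.

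*Alpl* had the largest estimate upwards. Its signal was 5.06, 5.59 and 5.25 at 24 h, 4.47, 5.01 and 5.20 at 6 h, and 4.56, 5.29 and 5.20 in control. The 24 h array was the highest of its experiment in 3 of 3 experiments, but by little in experiment 3, and the groups overlapped. All these values lie within 1 unit of the median of their array. Between 24 h and control *Alpl* differed by 0.50, 0.30 and 0.05 in experiments 1, 2 and 3. The estimate was 0.28 ± 0.113 (SE; 95% interval 0.01 to 0.55, 1.22-fold), with an unadjusted p of 0.0416 and a limma adjusted p of 0.368.

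The *Alpl* differences between 24 h and 6 h were 0.59, 0.58 and 0.05. The estimate was 0.41 ± 0.113 (SE; 0.14 to 0.68, 1.33-fold, limma unadjusted p = 0.00886, adjusted p = 0.193). At 6 h against control it was -0.12 (-0.39 to 0.14, adjusted p = 0.959), with differences of -0.09 and -0.29 in experiments 1 and 2 and exactly 0 in experiment 3. The call at 24 h against 6 h changed in 2 of 20 alternatives, each without the 24 h array of experiment 3. Without experiment 1 the estimate was 0.32 (limma adjusted p = 0.81), and without experiment 2 it was 0.32 (adjusted p = 0.943). Without experiment 3 the estimate was 0.59 with an adjusted p of 0.0208, and without the 24 h array of experiment 3 it was 0.55 with an adjusted p of 0.0260. Over all 20 alternatives the adjusted p of this value lay between 0.0208 and 1.

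*Ank* encodes a membrane protein that raises pyrophosphate outside the cell. Its signal was 10.72, 10.92 and 10.60 at 24 h, 10.66, 10.92 and 10.56 at 6 h, and 10.63, 10.92 and 10.55 in control. Experiment 2 was exactly equal on its 3 arrays, and the other experiments differed by 0.09 and 0.04 at 24 h against control. The estimates were 0.04 (-0.01 to 0.10, limma adjusted p = 0.531) at 24 h against control, 0.01 (-0.04 to 0.07, adjusted p = 0.966) at 6 h against control and 0.03 (-0.03 to 0.09, adjusted p = 0.730) at 24 h against 6 h.

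*Smpd3* was read by 3 probe sets. The probe set 1438665_at gave 5.88, 6.09 and 5.75 at 24 h, 6.03, 6.35 and 5.85 at 6 h, and 6.24, 6.50 and 5.85 in control. In experiments 1 and 2 the 24 h array was the lowest and the 6 h array lay between it and control. In experiment 3 the 6 h and control arrays were equal and the 24 h array lay a little lower. The differences at 24 h against control were -0.37, -0.41 and -0.09, and the estimate was -0.29 ± 0.0691 (SE; 95% interval -0.45 to -0.13, 0.817-fold). It had the smallest p of the 11 probe sets, with an unadjusted p of 0.00398 and a limma adjusted p of 0.0973, and so did not pass.

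The call of this probe set changed in 3 of 20 alternatives, each of which left out arrays of experiment 3. Without experiment 1 the estimate at 24 h against control was -0.25 (limma adjusted p = 0.534). Without experiment 2 it was -0.23 (adjusted p = 0.68). Without experiment 3 *Smpd3* 1438665_at fell by 0.39 on the log2 scale at 24 h against control (limma adjusted p = 0.0289). The estimate was -0.37 (adjusted p = 0.0387) without the control array of experiment 3 and -0.36 (adjusted p = 0.0462) without its 24 h array. Over its 20 alternatives its adjusted p lay between 0.0289 and 1. At 6 h against control the estimate was -0.12 (-0.29 to 0.04, adjusted p = 0.959), and at 24 h against 6 h it was -0.17 (-0.33 to 0, unadjusted p = 0.0453, adjusted p = 0.459).

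The other *Smpd3* probe sets had lower signals than their array medians. The probe set 1422779_at gave 3.91, 4.12 and 4.44 at 24 h, 3.93, 4.12 and 4.44 at 6 h, and 3.78, 4.09 and 4.64 in control. The probe set 1450748_at gave 4.51, 4.87 and 4.56 at 24 h, 4.77, 4.87 and 4.56 at 6 h, and 4.53, 4.87 and 4.56 in control. Within experiment 2 and within experiment 3 the arrays of 1450748_at were exactly equal, so that it could not pass in this fit. For 1422779_at the 24 h array was above control in experiment 1 and below it in experiment 3. Their estimates at 24 h against control were -0.02 (-0.21 to 0.17, limma adjusted p = 0.951) for 1422779_at and -0.01 (-0.18 to 0.16, adjusted p = 0.977) for 1450748_at. Whether the difference between probe sets was larger than their spread was not tested.

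**Figure D3:**
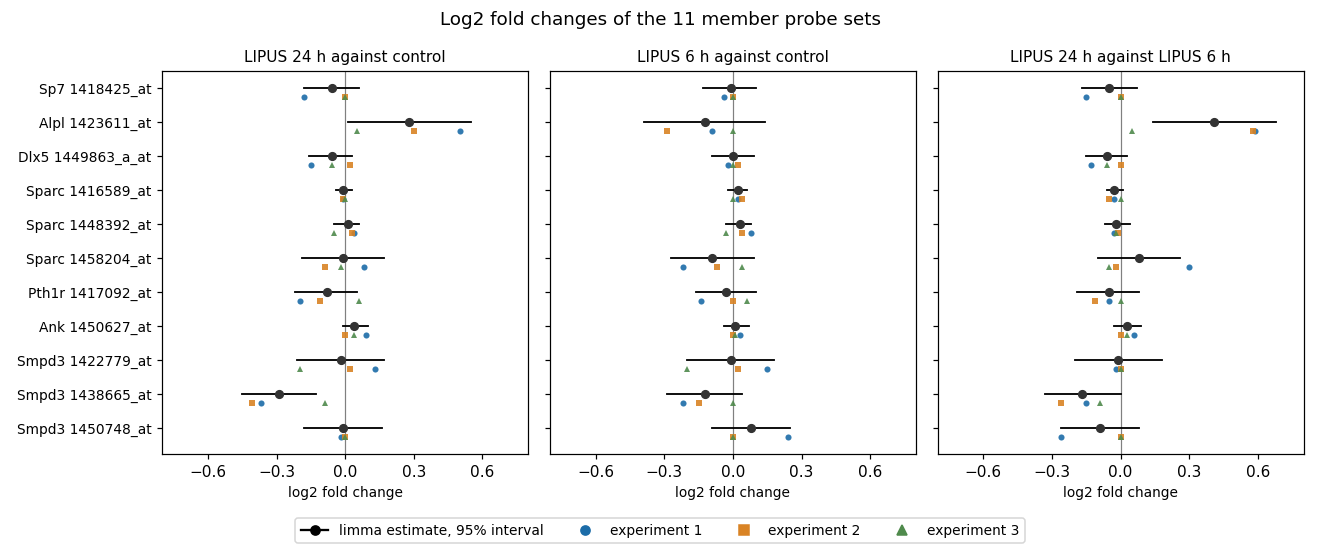
Log2 fold change (horizontal axes) of the 11 probe sets in the 3 comparisons, as the limma estimate with its 95% interval (black) and as the difference in each experiment (coloured points below it). *Alpl* and *Smpd3* 1438665_at lie farthest from 0, with the experiment 3 points nearer to 0 than those of experiments 1 and 2 at 24 h against control.

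A ratio of at least 1.5 in the same direction in each of the 3 experiments, taken here from the deposited values, was met by none of the 11 probe sets in any comparison. The study also selected probe sets by a 1.5-fold change in all of its experiments, in other software, and whether its input was the deposited values is not given in the sources used here. Over all probe sets the ratio taken here from the deposited values was met by 59 at 24 h against control. It was met by 0 at 6 h against control and by 52 at 24 h against 6 h. The counts of the study under its own selection differ and are not given here.

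The patterns of the probe sets across the 9 arrays were described after each value was centred within its experiment. These correlations rest on values that share arrays and, in experiments 2 and 3, exact ties, and they carry no test. The genes of most similar pattern are the best matches among all probe sets with 1 symbol and a mean above the median. Their high r was thus selected for. *Dlx5* and *Ank* ran opposite to each other (Pearson r = -0.97), and *Sp7* and *Dlx5* ran together (r = 0.92), although only 3 arrays of *Sp7* differ from the mean of their experiment. *Pth1r* and *Smpd3* 1438665_at ran together (r = 0.85). The 3 genes with the pattern most like *Alpl* were *Ccni* (r = 0.9938), *1700017B05Rik* (r = 0.9932) and *Trmt6* (r = 0.9915). For *Smpd3* 1438665_at they were *Bzw1* (r = 0.992), *Sfxn3* (r = 0.9856) and *Anxa5* (r = 0.9854), the last of which encodes a calcium-dependent phospholipid-binding annexin of matrix vesicles. For *Dlx5* they were *2610507I01Rik*, *Col5a3* and *Them6* (r = 0.9922 to 0.9936), for *Sparc* *Dusp5*, *Eri2* and *Dock1* (r = 0.9896 to 0.9923), for *Pth1r* *Mettl21a*, *Vmp1* and *Rbmx* (r = 0.967 to 0.9746), and for *Ank* *Dcaf5*, *Per2* and *Fscn1* (r = 0.9954 to 0.9968). *Lin52*, *Dpf2* and *Aagab* had r = 1 with *Sp7*, a value that rests on the 3 arrays of experiment 1.

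Other genes that act beside these were counted from lists, with 1 probe set for each gene. Over all 18193 genes 467 were higher and 286 lower at 24 h against control, which is 4.14%. Of 11 other osteoblast transcription factors 1 was higher (median log2 difference -0.02). Of 13 other genes of phosphate and pyrophosphate handling 1 was higher (median 0.01), of 11 matrix vesicle and sphingolipid genes 1 was higher (median 0.01), and of 18 genes of PTH receptor signalling 1 was lower (median 0.01). Of 15 other bone matrix genes 3 were higher and 2 lower (33.3%, median 0.01). The median over all genes was 0. At 6 h against control no gene of these lists passed, and the background was 0% there.

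The transcription factor that passed was *Zfp521*, a zinc finger protein that can antagonise *Runx2*. It was at 10.31, 10.54 and 10.13 at 24 h, 10.14, 10.36 and 9.88 at 6 h, and 10.05, 10.31 and 9.82 in control, and it was higher at 24 h than in control by 0.25, 0.23 and 0.31 (estimate 0.26, limma adjusted p = 0.00457). Its other probe set, at 0.21 with a difference of 0 in experiment 3, did not pass (adjusted p = 0.235). *Nt5e*, the ecto-5′-nucleotidase that frees phosphate and adenosine from AMP, was at 7.05, 7.63 and 7.12 at 24 h, 6.69, 6.97 and 6.44 at 6 h, and 6.76, 6.72 and 6.12 in control (0.73 at 24 h against control, adjusted p = 0.0306). Its other 2 probe sets had estimates of -0.01 and -0.04 and did not pass. *Anxa6*, an annexin of matrix vesicles, was higher by 0.27, 0.15 and 0.26 (0.23, adjusted p = 0.0268), and its other 3 probe sets, at 0.16 to 0.25, did not pass. *Slc9a3r1*, a scaffold protein that binds the PTH receptor, was lower, with differences of -0.33, -0.32 and -0.23 (-0.29, adjusted p = 0.0110), and 1 of its other 2 probe sets passed.

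Among the bone matrix genes, *Dmp1*, a phosphoprotein of the mineralising matrix, had the largest difference. Its probe set 1443745_s_at gave 7.43, 7.93 and 7.66 at 24 h, 6.46, 6.50 and 6.22 at 6 h, and 6.26, 6.48 and 6.00 in control, so the 24 h arrays lay above all others (1.43 at 24 h against control, limma adjusted p = 0.00123). Of its other 2 probe sets 1 passed, and 1426005_at, at 0.53, did not (adjusted p = 0.122). *Omd* (osteomodulin), a small proteoglycan of bone, gave 9.59, 10.01 and 9.36 at 24 h, 8.91, 9.26 and 8.56 at 6 h, and 8.85, 9.22 and 8.37 in control (0.84, adjusted p = 0.000697). *Dmp1* and *Omd* were picked by the study on these same arrays, so their counts are not independent evidence of a direction. *Fmod* (fibromodulin), which binds collagen fibrils, was higher by 0.26, 0.30 and 0.20 (0.25, adjusted p = 0.00384), and 2 of its other 5 probe sets passed. *Lox*, the enzyme that cross-links collagen, was lower, with differences of -0.30, -0.24 and -0.40 (-0.31, adjusted p = 0.00477), and 1 of its other 2 probe sets passed. The other lower gene was *Bgn* (biglycan), named after its values were seen, at -0.08 (adjusted p = 0.0334), and its other 2 probe sets did not pass. The estimates of these 9 genes kept their direction when any 1 experiment was left out, but only 0, 1 and 6 of them passed without experiments 1, 2 and 3, and 0 without the block.

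**Figure D4:**
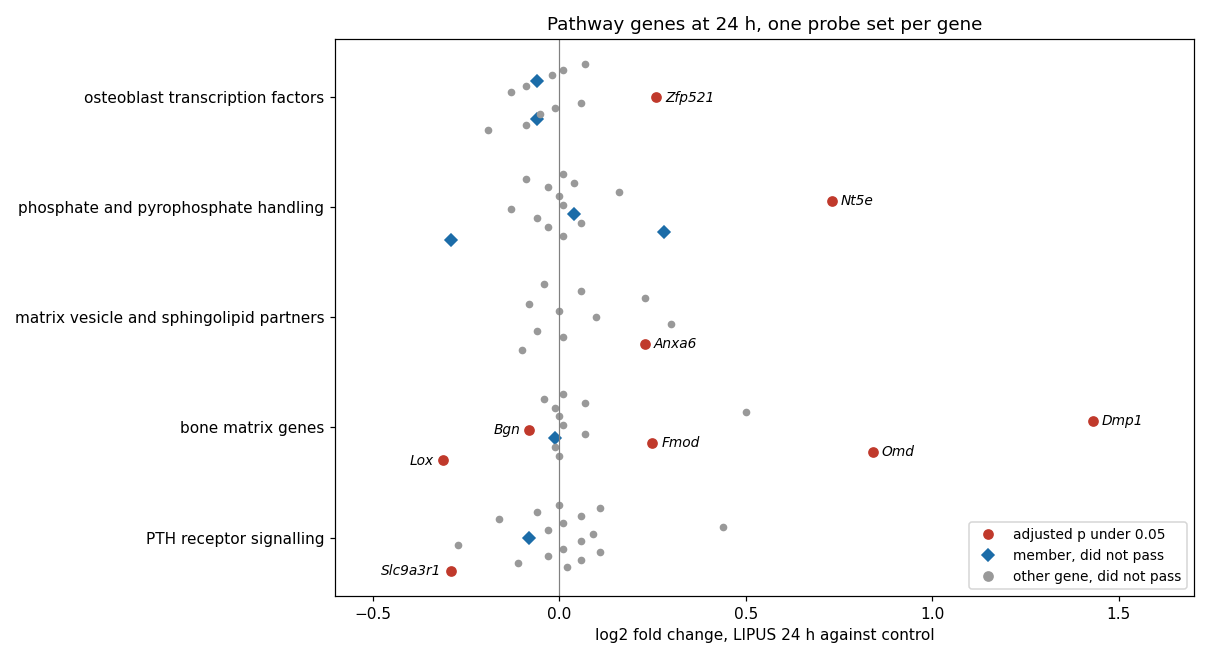
Log2 fold change at 24 h against control (horizontal axis) of each measured gene of 5 pathway lists, with 1 probe set a gene. Red points passed (adjusted p under 0.05), blue diamonds are genes described above that did not, and the red points lie outside the range of the blue diamonds for *Dmp1*, *Omd*, *Nt5e* and *Lox*.

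The same lists gave, at 24 h against 6 h, 1 higher transcription factor, 0 genes of phosphate and pyrophosphate handling, 1 higher matrix vesicle gene, 3 higher and 1 lower bone matrix genes and 1 lower gene of PTH receptor signalling, against 318 higher and 271 lower of all genes (3.24%).

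Markers of other cell types were measured beside these values. Between 24 h and control 0 of 6 adipocyte, 0 of 6 muscle and 0 of 5 endothelial markers passed. *Col2a1* was the 1 of 7 chondrocyte markers that passed (-0.82, limma adjusted p = 9e-05), and *Ctsk* the 1 of 7 macrophage and osteoclast markers (0.40, adjusted p = 0.00170). Of 6 epithelial markers *Trp63* was higher (0.44, adjusted p = 0.0125) and *Krt14* (-0.98, adjusted p = 9e-05) and *Cdh1* (-0.75, adjusted p = 0.0198) were lower. Of the other 3 probe sets of *Trp63* 0 passed, and of the other 2 of *Krt14* 1 passed. *Krt14* and *Cdh1* were picked by the study on these same arrays, so this count is not independent evidence. The share over all genes was 4.14%. The mean of the 6 epithelial markers was 6.42 to 6.75 at 24 h, 6.61 to 6.93 at 6 h and 6.66 to 6.96 in control. Their part in the differences above was not tested.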

How the data were processed

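The authors hybridised cRNA from 500 ng of total RNA to whole-genome mouse oligonucleotide arrays (Affymetrix) and deposited log2 signals that, per the labels, come from the RMA procedure (robust multi-array averaging), whose version and settings are not given in the sources used here. The values were used as deposited. No detection call is used. The 64 array control probe sets were left out. Symbols came from the platform annotation, updated through gene identifiers, and gave 1 symbol for 34945 probe sets, several for 932 and none for 9160, and a probe set with several was attributed to no gene. In the lists each gene is represented by its probe set of highest mean.

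Differences were fitted with limma 3.58.1 in R 4.3.3 (lmFit, then eBayes allowing an intensity trend). The fit took all 9 arrays and the experiment as a block, which left 4 residual and gave 3 prior degrees of freedom. The pairing comes from the replicate numbers of the labels. Arrays with the same number deviated together from their group means (r = 0.70 to 0.85, 0.88 to 0.89 and 0.83 to 0.93 in experiments 1, 2 and 3). Without this block the counts over all probe sets were 1 at 24 h against control and 0 at 24 h against 6 h. The precision is limited by 3 arrays a group. The procedure was tested on simulated data.

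The genes and lists were chosen with earlier results of these data known. Beside the 9 genes, the text names from each list up to 4 genes with the smallest adjusted p at 24 h against control among those that passed at any probe set, and for each of the 7 genes measured the 3 genes of the most similar pattern. Alternatives concerned the block, the intensity trend, dim probe sets, normalization, the arrays fitted, the test, the call rule and each array or experiment left out. Leaving out probe sets with exact ties was chosen after seeing the data.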

Additional observations from a re-analysis of the deposited data

Results flagged for a closer look

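LIPUS 24 h was compared directly with LIPUS 6 h, since both differences from control are taken against the same control arrays. The time since LIPUS and the time in culture cannot be told apart in this comparison. Of all probe sets 2.02% passed, and 0 of the 11 probe sets of the commitment and mineral-handling genes did. Of the other 9 named genes 7 passed, a count that is no independent support, since these genes were named for their difference between control and the same 24 h arrays. The log2 difference was 1.28 for *Dmp1* (limma adjusted p = 0.00218), 0.74 for *Omd* (adjusted p = 0.00127), 0.26 for *Anxa6* (adjusted p = 0.0209), 0.20 for *Zfp521* (adjusted p = 0.0149), 0.18 for *Fmod* (adjusted p = 0.0148), -0.28 for *Lox* (adjusted p = 0.00775) and -0.24 for *Slc9a3r1* (adjusted p = 0.0252). All 7 of these calls were lost without experiment 1, without experiment 2 and without the replicate block, while 7 of the 9 genes passed without experiment 3. The 9 differences kept their direction in each of these fits. Groups of 3 arrays are too small to look for an outlying array.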

How the results depend on the processing

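The count of the 11 probe sets that passed stayed at 0 in each comparison, except that it was 1 at 24 h against control without experiment 3, without control replicate 3 and without LIPUS 24 h replicate 3 (*Smpd3*), and 1 at 24 h against 6 h without experiment 3 and without LIPUS 24 h replicate 3 (*Alpl*). Of 221 alternative values for these probe sets in each comparison, 17 at 24 h against control, 15 at 6 h against control and 6 at 24 h against 6 h had the other sign, all of them values that did not pass. Only 10 of the probe sets were kept among the brighter 60%, and only 2 among the 5755 without exact ties.

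Counts over all probe sets follow for 24 h against control and for 24 h against 6 h, in this order. They were 1 and 0 without the replicate block, 522 and 354 without the intensity trend, and 5 and 8 with only the 6 arrays compared. An unpaired t-test on the log2 values gave 0 and 0 after adjustment (351 and 299 at its unadjusted threshold). The study names Student's t-test but not the values it was run on. The counts were 59 and 52 by the 1.5-fold rule, and 1969 and 1527 among probe sets without exact ties. Without single arrays or experiments they ranged from 0 to 1439 at 24 h against control, from 0 to 1498 at 24 h against 6 h and from 0 to 38 at 6 h against control. Leaving out 1 array lowered the count at 24 h against control to 200 (control 1), 399 (control 2), 350 (24 h 1), 351 (24 h 2), 472 (6 h 1), 753 (6 h 2) and 773 (6 h 3), and that at 24 h against 6 h to 338, 536, 209, 261, 71, 235 and 406 without the same arrays. The counts were 0 in both 24 h comparisons without experiment 1, and 49 and 44 without experiment 2. The causes were not tested. Of the 5456 probe sets (12.1%) equal on all arrays of experiments 2 and 3, 0 passed at 24 h against control. This outcome was fixed by the fit with the block, since experiment 1 alone then sets both the estimate and its spread.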
